A study of Drosophila melanogaster with 22 samples.

Results

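The 73 nuclear genes described here encode proteins of the mitochondrial ribosome of Drosophila melanogaster and were taken by name, as every gene whose FlyBase symbol starts with mRpL or mRpS. They are 73 of 18068 gene identifiers in the tables. By name, 47 belong to the large and 26 to the small ribosomal subunit. Of the 73, 72 were counted in the nanopore libraries and mRpL53 was analysed in the Illumina libraries only. The mitochondrial ribosome translates the few messenger RNAs that the mitochondrial genome encodes, all for core subunits of the respiratory chain and ATP synthase. Its ribosomal RNAs are made inside the organelle, while its proteins are encoded in the nucleus, made in the cytosol and imported. Some of these proteins have counterparts in bacterial ribosomes, and others are found only in mitochondria.

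All larvae were of the wild-type strain OreR. The groups were infested lymph glands at 96 h after egg laying (24 h after infestation by a wasp), normal lymph glands at 96 h, infested blood at 120 h (48 h after infestation), normal blood at 120 h, infested blood at 96 h (24 h after infestation) and normal blood at 96 h. Blood means the circulating hemocytes, which were shaken out of larvae by vortexing with glass beads, and the lymph gland is the larval organ in which blood cells form. RNA came from pooled larvae. Nanopore cDNA sequencing gave 3 libraries for each of these groups except normal blood, with 2 at each age, and normal lymph glands at 120 h had a single library, made with another kit. Illumina sequencing gave 1 library each for infested lymph glands at 96 h and the 4 blood groups.

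The 16 nanopore libraries that were tested held between 356632 gene counts (infested lymph gland replicate 2) and 2079764 gene counts, and the Illumina libraries between 14750855 and 24307061 expected counts. Over all genes, blood replicates 2 and 3 were near one another, and replicate 1 of infested blood stood apart. The chi-square per degree of freedom was 2.51 to 3.18 between replicates 2 and 3, against 9.01 to 18.6 with replicate 1. No pair of replicates matched within sampling noise over all genes. Over the members of infested blood at 96 h, replicate 1 did not stand apart. There the chi-square per degree of freedom was 1.82 and 2.91 with replicates 2 and 3, and 2.95 between these. Over the members of infested blood at 120 h, replicate 1 did stand apart. There the value was 3.64 and 3.30 with replicates 2 and 3, and 1.42 between these. The labels do not say whether replicates came from separate cultures of larvae, so p-values measure the spread between these libraries only. Defining markers followed the labels: the hemocyte genes of the plasmatocyte list summed to 2257 to 6462 CPM (counts scaled to a fixed library total) in every blood library, against 778 to 2132 CPM in lymph glands, and the prohemocyte list to 199 to 334 CPM in blood, against 959 to 3155 CPM in lymph glands. The lamellocyte list, for the large flat hemocytes formed after wasp attack, summed to 1421 to 13440 CPM in infested libraries, against 71.2 to 238 CPM in normal ones. In such bulk samples, fewer cells of a type and less RNA per cell cannot be told apart.

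The members were short genes. Their longest annotated transcripts had a median of 783 bases in the Ensembl annotation BDGP6.54, against 1699 bases for all 13986 protein-coding genes, with a median of 2 exons against 3. They were spread over the genome, with 11 on chromosome X, 12 on 2L, 12 on 2R, 17 on 3L and 21 on 3R. An oppositely oriented protein-coding gene overlapped 42 of the 73 (57.5%), against 33.7% of all protein-coding genes. Overlaps of the annotated spans ran from 3 bases (mRpL39 and mRpL51) to 9817 bases (mRpS9). Reads wholly inside an overlap can be told apart by strand only where counting used it. Whether it did is not given in the sources used here. On the same strand, mRpL13 overlaps CG10602 by 1221 bases, mRpS14 overlaps CG32533 by 30 bases and mRpL53 overlaps CG33155 by 1470 bases. The counts of these 3 members are uncertain to that extent.

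All 73 members were expressed in every Illumina library, at a narrow range of levels per length. TPM (transcript abundance scaled to a fixed total and corrected for length) averaged over the 5 libraries had a median of 52.8 across members, with quartiles of 45.7 and 67.7 TPM, and no member fell under 1 TPM in any library. The medians of the large and small subunit members were 52.8 and 53.2 TPM. The 45 members from families shared with bacteria had a median of 56.4 TPM and the 28 mitochondria-specific members one of 51.7 TPM, a grouping from background knowledge made after the values were seen. In mammals the counterpart of mRpS30 sits in the large subunit, so the name does not always give the subunit.

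The member with the highest mean level was mRpL33, a small protein of the large subunit, with 157 TPM in infested lymph gland, 110 TPM in infested and 120 TPM in normal blood at 120 h, and 132 TPM in infested and 140 TPM in normal blood at 96 h. Next came mRpL55, a mitochondria-specific protein, with 165 TPM in infested lymph gland, 68.9 and 67.4 TPM in infested and normal blood at 120 h, and 127 and 134 TPM in infested and normal blood at 96 h. mRpL12, the stalk protein that recruits translation factors, averaged 111 TPM, mRpS21 averaged 109 TPM and mRpS5 averaged 106 TPM. These 5 lead the order of means, but the ranges of all 5 over the 5 libraries overlap, and in infested lymph gland mRpL55 lay above mRpL33. The lowest means were those of mRpL11 (29.6 TPM) and mRpL1 (36.7 TPM), counterparts of bacterial stalk proteins, the GTP-binding mRpS29 (31.9 TPM), mRpL44 (32 TPM), whose fold resembles a ribonuclease, and mRpL37 (37.3 TPM). Ranges of these 5 also overlap. From the lowest to the highest mean the members spanned 29.6 to 132 TPM.

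**Figure D1:**
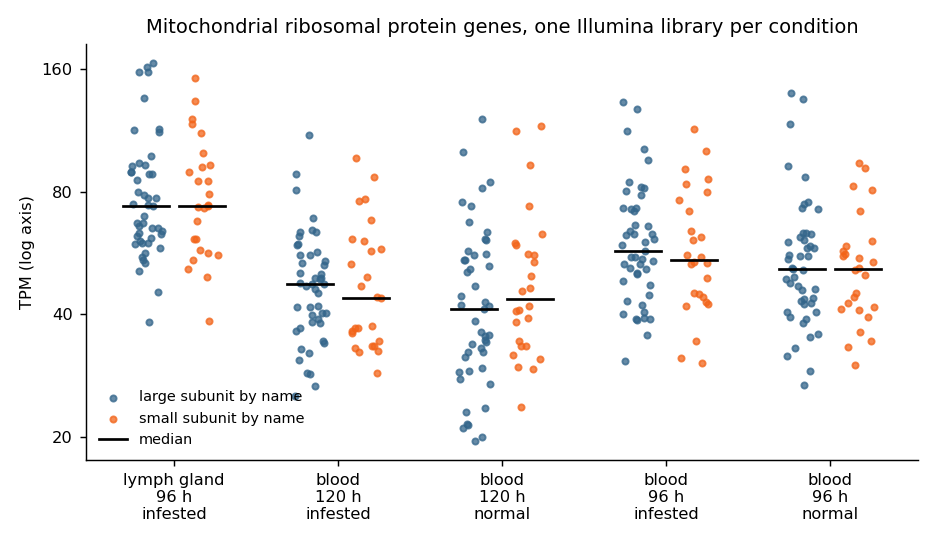
TPM of the 73 mitochondrial ribosomal protein genes (log axis) in each of the 5 Illumina libraries, 1 library per condition, with large subunit members in blue, small subunit members in orange and black bars at the medians. Every member lies above 19 TPM in every library, and the cloud is highest in infested lymph gland, where the median of all members is 73.9 TPM, and lowest in normal blood at 120 h, where it is 41.8 TPM.

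One member cannot be followed by its nanopore counts. mRpL42, a mitochondria-specific protein of the large subunit, was listed at 0 in infested lymph gland replicate 2, infested blood at 96 h replicate 3 and normal blood at 120 h replicate 3. In the other 13 libraries it had 80 to 232 counts, and all 5 Illumina libraries gave it 59.7 to 99.7 TPM. Genes that every cell uses were also listed at 0 in single libraries, among them Gapdh1 and Pgk in infested lymph gland replicate 2. Of 2886 genes with a median of at least 30 CPM, 85 were listed at 0 somewhere, and mRpL42 was the only member among them. Its fitted changes had standard errors of 0.89 to 1.14 on the log2 scale in the comparisons of 2 groups and passed no test. It stayed in the tests and their counts of called members, and was set aside, after its values were seen, from the nanopore sums, counts of direction and medians of the 16 tested libraries given below, which are over 71 members.

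Summed over the 73 members, Illumina TPM came to 5938 in infested lymph gland at 96 h, 3578 in infested and 3485 in normal blood at 120 h, and 4514 in infested and 4081 in normal blood at 96 h. The nanopore libraries, which were replicated, gave the same order of groups except that infested blood at 120 h lay below normal blood at 120 h and the groups at 96 h were close. Their summed CPM, scaled by edgeR's TMM factors, was 6898, 6758 and 6123 over the 71 members in infested lymph glands and 5860, 5889 and 6146 in normal lymph glands. In blood at 120 h it was 4361, 4567 and 4389 with infestation and 5252 and 5151 without. In blood at 96 h it was 5861, 5635 and 5594 with infestation and 5735 and 5469 without. With TMM factors the 3 infested libraries at 120 h were thus the lowest of all 16 and overlapped with no other group. Infested and normal blood at 96 h overlapped. As a share of library totals, the 71 members came to 0.5273, 0.4423 and 0.4275% in infested blood at 120 h. Normal blood had 0.4782 and 0.4695% at 120 h and 0.5177 and 0.5009% at 96 h. The separation of infested blood at 120 h is therefore lost with library totals.

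**Figure D2:**
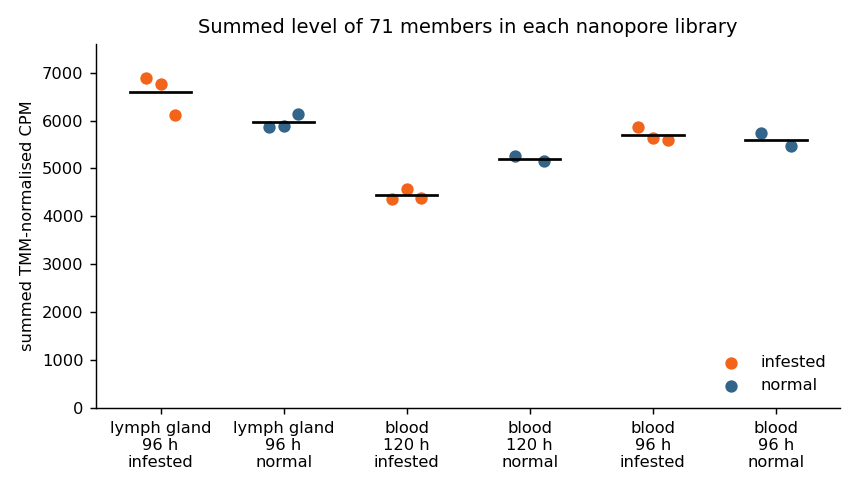
Summed TMM-normalised CPM of 71 members (mRpL42 set aside) in each of the 16 nanopore libraries (points, infested in orange and normal in blue) with group means (bars). Infested blood at 120 h averages 4439 CPM, below every other group, and infested lymph gland averages 6593 CPM. With library totals in place of TMM factors, infested and normal blood at 120 h overlap.

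Single members moved little between groups. The highest of the 6 group means over the lowest was 1.66 in the median member, against 2.23 in the median of all 7076 genes tested, a set that also holds genes with few counts. It passed 2 in 57.7% of all genes tested and in 6 of 71 members (8.45%): mRpS30, mRpS10, mRpL23, mRpL37, mRpL45 and mRpL13. By means with TMM factors, infested blood at 120 h was the lowest group for 46 of the 71, and infested lymph gland was the highest for 42. Lowest and highest groups were not counted over all genes, so whether this order is particular to the members was not tested. The steadiest member was mRpL41, at 1.21. Across members within a group, the order of nanopore CPM followed that of Illumina TPM with a Spearman correlation of 0.571 to 0.799 over 71 members, a description across genes that share their libraries.

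Differences were tested with edgeR's quasi-likelihood F test on all 7076 genes that passed its filter, with Benjamini-Hochberg adjustment over all of them, a threshold of 0.05 and changes on the log2 scale with their standard errors (SE). All 72 counted members passed the filter. The comparisons share libraries with each other, so their results are not independent.

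**Figure D3:**
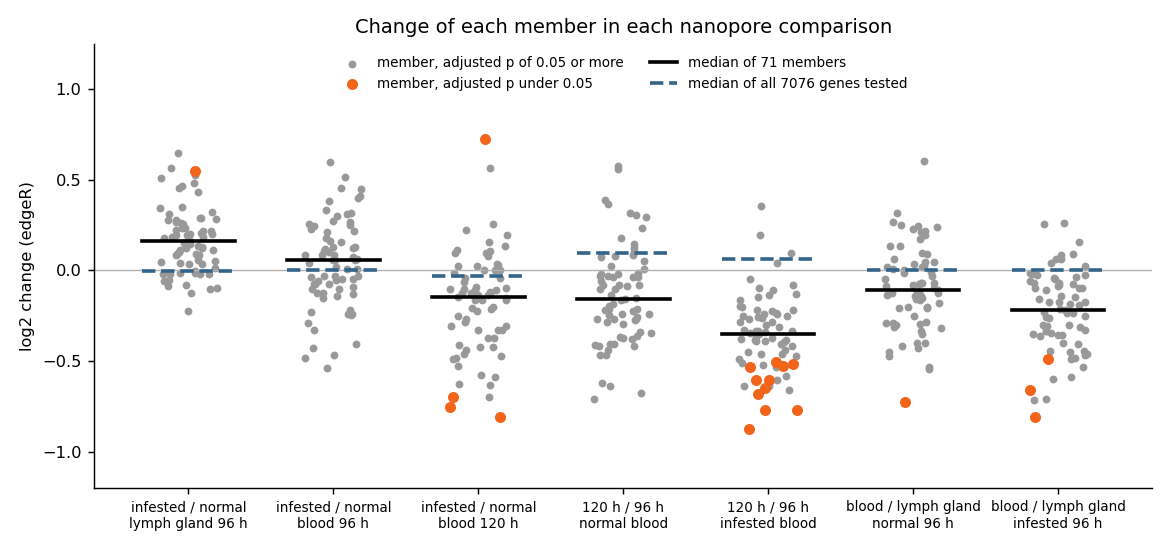
Log2 change of each of 71 members (points, mRpL42 set aside) in 7 nanopore comparisons, with members past the threshold in orange, the median of the members as a black bar and the median of all 7076 genes tested as a dashed blue bar. The medians of the members lie at -0.35 for 120 h against 96 h in infested blood, against 0.07 for all genes, and at -0.22 for infested blood against infested lymph gland, against 0.00 for all genes.

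Members were lower in the older infested blood. At 120 h (48 h after infestation) 11 members were lower than at 96 h (24 h after infestation) and 0 were higher, so 15.3% of the members were called, where 24.4% of all genes tested were called either way and 9.37% were called lower. The share called either way is therefore below that of all genes, and the share called lower is above it. Of the 71, 67 had a negative change, and the median was -0.35, while all genes had a median of 0.07. Among the 7 comparisons of 2 groups this was the median farthest from 0 with TMM or RLE factors, whereas with library totals that of infestation in lymph gland was farther (0.36, against -0.35 here). The libraries of the 2 ages did not overlap for 28 members, all lower at 120 h, where 15% of all genes tested were lower without overlap and 22.2% were higher. No member was higher without overlap.

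Among the large subunit members, mRpL9, a counterpart of a bacterial protein, had 21.1, 35.2 and 27.7 CPM in infested blood at 120 h, against 54.9, 56.3 and 43.8 CPM at 96 h. It was lower by the widest margin of the called members, and its libraries did not overlap between ages (log2 change -0.87 ± 0.21 SE, edgeR adjusted p = 0.00716). mRpL55 had 55.9, 91.7 and 76.1 CPM at 120 h, against 136, 114 and 136 CPM at 96 h. Every library at 120 h lay below every library at 96 h (-0.77 ± 0.18 SE, edgeR adjusted p = 0.00480). mRpL49, another mitochondria-specific protein, had 54.8, 73.7 and 66.9 CPM at 120 h, against 102, 123 and 80.3 CPM at 96 h, again without overlap (-0.65 ± 0.17 SE, edgeR adjusted p = 0.0126).

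mRpL17, mRpL23 and mRpL47 were also lower. mRpL17, whose bacterial counterpart lies near the exit of the nascent chain tunnel, had 47.4, 41.8 and 46.1 CPM in infested blood at 120 h, against 64.5, 64.0 and 62.8 CPM at 96 h. mRpL23, also a counterpart of a protein at that exit, had 63.2, 54.5 and 64.6 CPM at 120 h, against 114, 107 and 67.2 CPM at 96 h. mRpL47, the counterpart of another bacterial protein there, had 67.5, 79.0 and 70.3 CPM at 120 h, against 89.8, 101 and 123 CPM at 96 h. In all 3 the ages did not overlap, most narrowly in mRpL23, and the changes were -0.50 ± 0.13, -0.68 ± 0.19 and -0.52 ± 0.17 (SE), with edgeR adjusted p of 0.0116, 0.0147 and 0.0408.

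The other called large subunit members were mRpL18 and mRpL20. mRpL18, whose bacterial counterpart binds a small ribosomal RNA, had 60.1, 58.5 and 42.7 CPM in infested blood at 120 h, against 96.8, 83.5 and 64.2 CPM at 96 h. mRpL20, whose bacterial counterpart takes part in subunit assembly, had 56.9, 59.1 and 38.1 CPM at 120 h, against 82.8, 71.7 and 70.1 CPM at 96 h. Both separated the ages (-0.61 ± 0.19 and -0.53 ± 0.18 SE, edgeR adjusted p = 0.0256 and 0.0453), mRpL20 being the nearest to the threshold.

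Of the small subunit, 3 members were called. mRpS10, of the head of the subunit, had 37.9, 43.2 and 46.1 CPM in infested blood at 120 h, against 64.5, 69.9 and 84.7 CPM at 96 h. mRpS11, of the platform, had 50.6, 43.2 and 45.0 CPM at 120 h, against 80.2, 63.4 and 67.2 CPM at 96 h. mRpS33, which is mitochondria-specific, had 66.4, 63.8 and 74.95 CPM at 120 h, against 97.6, 111 and 83.2 CPM at 96 h. No library at 120 h reached those at 96 h, and the changes were -0.77 ± 0.24, -0.61 ± 0.19 and -0.53 ± 0.17 (SE), with edgeR adjusted p of 0.0267, 0.0321 and 0.0292.

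**Figure D4:**
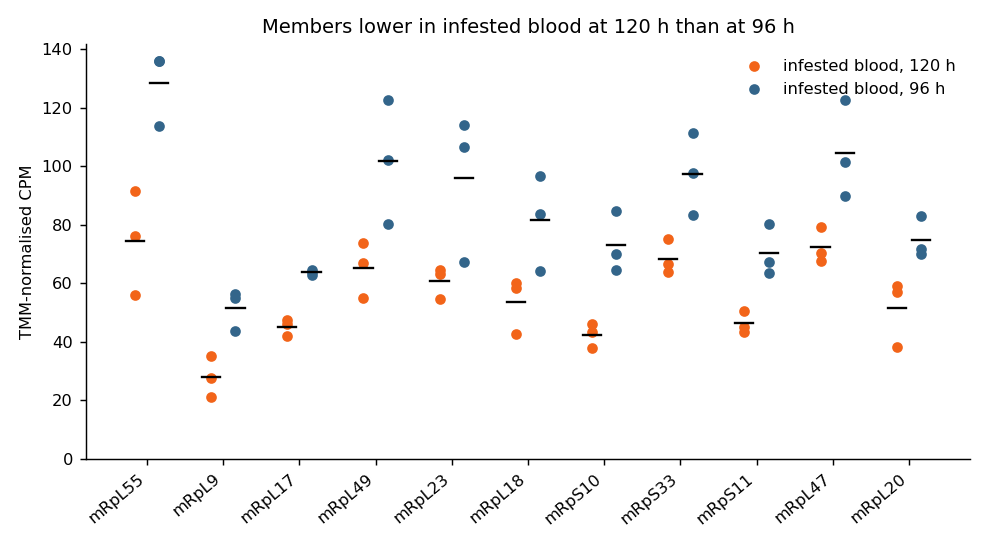
TMM-normalised CPM of the 11 called members in infested blood, with the 3 libraries at 120 h in orange left of the 3 at 96 h in blue and bars at the group means. In each member the points at 120 h lie below those at 96 h, and the nearest approach is in mRpL23, at 64.6 against 67.2 CPM.

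The called members came from both subunits and both origins, with no test of a difference between these. By subunit, 8 of 45 large (17.8%) and 3 of 26 small subunit members (11.5%) were called lower, where 9.37% of all genes tested were, with medians of -0.38 and -0.31. By origin, 8 of 45 members of families shared with bacteria (17.8%) and 3 of 26 mitochondria-specific members (11.5%) were called lower, with medians of -0.37 and -0.33. The shares of the small subunit and of the mitochondria-specific members thus lie near that of all genes. The 4 members with a positive change were mRpS9, mRpS5, mRpL19 and mRpL4, none past the threshold.

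The Illumina libraries, with 1 library per condition and so no test, gave the same direction for all 11 called members. Of the 55 members that reached 20 CPM in one of both libraries, 53 had a lower value in infested blood at 120 h than at 96 h. Of all 5370 genes that reached it, 55.9% were lower. The members' median log2 ratio of CPM with 5 added was -0.26, against -0.05 over those genes. None of the 55 members differed by 2-fold, where 8.34% of those genes did. mRpL55 had the lowest ratio, with 14.1 CPM at 120 h against 25.7 CPM at 96 h.

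The count of 11 depends on the libraries and the method. It was 3 with blood replicates 2 and 3, which lie near one another over all genes, summed. It was 4 with DESeq2 or with the 2 groups fitted alone, and 5 with library totals in place of TMM factors. Without infested blood at 96 h replicate 1 it was 6, without replicate 2 of the same group 5, without infested blood at 120 h replicate 2 it was 6, and without replicate 1 of both ages, an alternative chosen after the data were seen, 5. Shares of all genes called in these alternatives are not given here. A loss of calls among members alone therefore cannot be told from one over all genes. Every marker list that moved between these ages is given here, since its part in the result was not tested. The lamellocyte list was higher at 120 h in 5 of 6 genes, at 10050 to 13440 CPM summed, against 3763 to 3840 CPM at 96 h. The plasmatocyte list was lower in 4 of 6, at 2257 to 2577 CPM against 3473 to 4798 CPM, and the crystal cell list in 2 of 4, at 623 to 1444 CPM against 1498 to 3519 CPM. The midgut list was lower in 6 of the 6 genes tested, at 19.6 to 45.3 CPM against 2301 to 3263 CPM, with Jon25Bii listed at 0 at 120 h and Amy-p at both ages, and the muscle list in 8 of 8, at 269 to 854 CPM against 874 to 2239 CPM. The male germline list was higher in both of its 2 genes tested, at 99.1 to 179 CPM against 2.96 to 11.3 CPM, with vas and aly listed at 0 at 96 h. The fat body list was higher in 2 of 6, at 521 to 3074 CPM against 1449 to 1995 CPM, with Fbp1 listed at 0 at 96 h, and its highest library was infested blood at 120 h replicate 1.

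Other genes of mitochondrial protein synthesis were counted in the same comparison. Of 3 mitoribosomal proteins under other names, tko (the small subunit protein of the decoding centre) was lower (-0.54 ± 0.15 SE, edgeR adjusted p = 0.0176), and bonsai and CG6094 did not pass. Of 15 genes tested from a list of mitochondrial translation factors 0 passed, with 1 at an unadjusted p under 0.05 and a median of -0.12. Of 17 from a list of mitochondrial tRNA synthetases, TrpRS-m was lower (-1.30 ± 0.41 SE, edgeR adjusted p = 0.0308), with a median of -0.08. Of 18 from a list for mitochondrial DNA, RNA and ribosome assembly, scu and mtSSB, the single-stranded DNA binding protein, were lower (-0.69 ± 0.13 and -0.59 ± 0.17 SE, edgeR adjusted p = 0.00162 and 0.0190). These lists are broader than their names. The first also holds bsf, Lrpprc2, Roe1 and OXA1L, the second HisRS, LysRS, GlyRS and ThrRS, and the third Lon, ClpP and ClpX. Of 24 genes of the mitochondrial genome 0 passed, with 1 at an unadjusted p under 0.05 and a median of -0.39.

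The nuclear genes of the respiratory chain, whose complexes also take up the products of the mitochondrial ribosome, were lower in 40 of 70 and higher in 8, with a median of -0.51. The 8 were COX7CL, UQCR-14L, COX7AL, ATPsynGL, COX5BL, ATPsynCF6L, ATPsynepsilonL and COX4L, and the male germline list was higher in the same libraries. The whole list summed to 21180 to 21810 CPM at 120 h, against 31320 to 32270 CPM at 96 h. Of 88 cytosolic ribosomal proteins 3 were higher and 2 lower, with a median of -0.04. Replicates of that list lay far apart: it summed to 155100, 314600 and 297500 CPM at 120 h. At 96 h it summed to 202300, 298200 and 284900 CPM, with replicate 1 the lowest at both ages. Whether these lists differ from the members was not tested.

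In normal blood the same ages differed in 0 members past the threshold in edgeR, where 4.27% of all genes tested were called, with 6 at an unadjusted p under 0.05 and 0 called by DESeq2. The median was -0.16, against 0.10 for all genes, and 53 of 71 changes were negative. The 3 with the smallest p were mRpL22 (47.0 and 54.6 CPM at 120 h, against 74.1 and 85.7 CPM at 96 h), mRpS28 (88.7 and 75.8 CPM at 120 h, against 52.7 and 59.3 CPM at 96 h) and mRpS22 (36.4 and 31.8 CPM at 120 h, against 58.5 and 48.8 CPM at 96 h). Each separated its 2 libraries at 120 h from the 2 at 96 h, mRpS28 upward, with changes of -0.68 ± 0.22, 0.56 ± 0.21 and -0.62 ± 0.23 (SE) and edgeR adjusted p of 0.09997, 0.156 and 0.167. The 11 members called in infested blood had changes of -0.42 to 0.15 in normal blood, 9 of them negative.

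Whether the difference between ages itself differed between infested and normal blood was tested as an interaction. It passed in 0 of 72 members in edgeR, where 1.94% of all genes tested were called, with 6 at an unadjusted p under 0.05 and 0 called by DESeq2. For the 11 members its edgeR adjusted p lay between 0.182 and 0.957. The smallest p among all members were those of mRpS28 (-0.76 ± 0.26 SE, adjusted p = 0.165), mRpL9 (-0.97 ± 0.34 SE, adjusted p = 0.182) and mRpS11 (-0.75 ± 0.31 SE, adjusted p = 0.266). Of the 71 members, 54 had a negative interaction, with a median of -0.24 against -0.03 for all genes. No single member is therefore shown to fall more in infested than in normal blood, and the median was not tested.

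Between tissues of infested larvae at 96 h, 3 members were lower in blood than in lymph gland and 0 were higher, or 4.17% of the members, where 11% of all genes tested were called either way and 3.25% lower. mRpL37, a mitochondria-specific protein, had 27.0, 37.3 and 26.3 CPM in infested blood, against 50.2, 68.8 and 49.1 CPM in infested lymph gland. mRpS25, also mitochondria-specific, had 63.6, 58.6 and 55.5 CPM in blood, against 99.7, 106 and 79.6 CPM in lymph gland. mRpL3, which lies near the peptidyl transferase centre, had 44.5, 57.5 and 51.1 CPM in blood, against 66.3, 79.4 and 73.2 CPM in lymph gland. All 3 separated the tissues (-0.81 ± 0.20, -0.66 ± 0.20 and -0.49 ± 0.15 SE, edgeR adjusted p = 0.0152, 0.0418 and 0.049999, mRpL3 just under the threshold).

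The other members did not pass the threshold. Of the 71, 62 had a negative change, including all 26 of the small subunit, and the median was -0.22, against 0.00 for all genes. For 19 members the 3 blood libraries lay below the 3 lymph gland libraries, where 11.5% of all genes tested did, and for 0 above them, where 15.8% did. In Illumina, 68 of the 68 members with at least 20 CPM were lower in blood, where 67.1% of 5455 genes were. The members' median log2 ratio was -0.47, against -0.17 over those genes. With 5 CPM added, 0 of the members differed by 2-fold, where 7.83% of those genes did. With 1 CPM added, 1 member did, where 8.58% of those genes did. mRpL37 had 37.4 CPM in blood, against 67.1 CPM in lymph gland. The nanopore count of called members was 0 without infested blood replicate 3 and 1 without infested blood replicate 1 or infested lymph gland replicate 1, and it was also 1 when any of 5 libraries of the other groups was left out of the pooled spread (normal lymph gland replicate 2, either normal blood library at 96 h, infested blood at 120 h replicates 2 and 3).

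**Figure D5:**
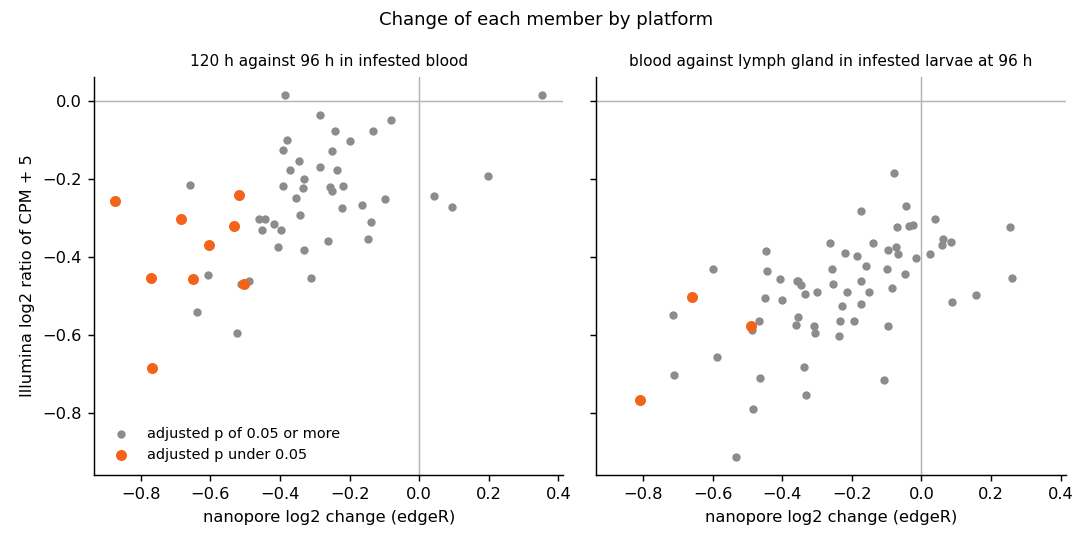
Illumina log2 ratio of CPM with 5 added (1 library per condition) against nanopore log2 change for members that reached 20 CPM in at least 1 of both Illumina libraries, with members past the nanopore threshold in orange. Left, 120 h against 96 h in infested blood, where 53 of 55 Illumina ratios are below 0 (mRpL53, with no nanopore value, is not drawn). Right, blood against lymph gland in infested larvae at 96 h, where 68 of 68 are below 0. Over all genes reaching 20 CPM, 55.9% (left) and 67.1% (right) of the Illumina ratios are below 0.

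In normal larvae at 96 h, mRpS28, a small subunit protein, was the member called between tissues, lower in blood, where 7.5% of all genes tested were called either way and 2.73% lower. It had 52.7 and 59.3 CPM in normal blood, against 106, 102 and 71.0 CPM in normal lymph gland, without overlap (-0.73 ± 0.19 SE, edgeR adjusted p = 0.0291). The median over members was -0.11, against 0.00 for all genes, and 47 of 71 changes were negative. The 3 members called in infested larvae had changes of -0.30 to -0.09 in normal larvae. The call of mRpS28 was lost without normal lymph gland replicate 1 or 2 or without either library of normal blood at 96 h.

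Marker lists also moved in both tissue comparisons. Counts are over the genes of a list that were tested. In infested larvae the plasmatocyte list was higher in blood in 6 of 6 genes (3473 to 4798 CPM summed, against 778 to 1118 CPM in lymph gland) and the crystal cell list in 4 of 4 (1498 to 3519 CPM against 114 to 275 CPM, with lz and peb listed at 0 in lymph gland). The lamellocyte list was higher in blood in 5 of 6 (3763 to 3840 CPM against 1421 to 2020 CPM), the muscle list in 6 of 8 (874 to 2239 CPM against 438 to 550 CPM) and the midgut list in 1 of 6 (2301 to 3263 CPM against 114 to 1890 CPM, with Jon25Bii listed at 0 in lymph gland and Amy-p in both). The prohemocyte list was lower in blood in 2 of 3 (252 to 327 CPM against 959 to 1332 CPM, with shg listed at 0 in both), and the list of the posterior signaling centre, the niche of the lymph gland, in 2 of 2 (0 to 2.62 CPM against 18.5 to 20.9 CPM, with Antp listed at 0 in blood).

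In normal larvae the plasmatocyte list was higher in blood in 5 of 6 genes (6244 to 6462 CPM, against 1941 to 2132 CPM in lymph gland), the crystal cell list in 2 of 4 (9360 to 9988 CPM against 2216 to 4117 CPM) and the muscle list in 3 of 8 (2803 to 3362 CPM against 943 to 1064 CPM). The midgut list was higher in blood in 5 of 6 (241.8 and 242.5 CPM against 0 to 2.77 CPM, with deltaTry listed at 0 in lymph gland, and Jon25Bii and Amy-p in both). The prohemocyte list was lower in blood in 2 of 3 (199 to 212 CPM against 2763 to 3155 CPM, with shg listed at 0 in blood), the posterior signaling centre list in 2 of 2 (all 3 of its genes listed at 0 in blood, against 37.8 to 40.7 CPM) and the fat body list in 1 of 6 (450.4 to 1296 CPM against 989 to 1146 CPM, with Lsp1alpha and Fbp1 listed at 0 in blood). Their part in the members' values was not tested.

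Infestation itself changed few members. In lymph gland at 96 h, 1 member was higher and 0 were lower, where 5.13% of all genes tested were called either way and 3.29% higher. The member was mRpL48, a mitochondria-specific protein of the large subunit, with 96.1, 92.7 and 76.8 CPM in infested glands, against 64.7, 59.6 and 56.3 CPM in normal glands. The groups did not overlap (0.55 ± 0.15 SE, edgeR adjusted p = 0.0429), but the call was lost in 17 of 24 alternatives, where the adjusted p reached 0.232, among them those without infested lymph gland replicate 1 or 2 and without any one of the 3 normal lymph gland libraries. For 14 members every infested gland lay above every normal one, where 10.8% of all genes tested did, and for 0 below, where 10.8% did as well. Of the 71, 56 had a positive change, with a median of 0.16 against 0.00 for all genes. With library totals in place of TMM factors these medians were 0.36 and 0.16.

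In these glands the lamellocyte list was higher in 6 of 6 genes (1421 to 2020 CPM with infestation, against 74.7 to 91.0 CPM without) and the midgut list in 5 of 6 (114 to 1890 CPM against 0 to 2.77 CPM, with deltaTry listed at 0 in normal glands, and Jon25Bii and Amy-p in both). Infested gland replicate 3 was the low one in both lists and also had the lowest member sum of its group, and without it the count of called members was again 1. The crystal cell list was lower in 4 of 4 (114 to 275 CPM against 2216 to 4117 CPM, with lz and peb listed at 0 in infested glands), the plasmatocyte list in 4 of 6 (778 to 1118 CPM against 1941 to 2132 CPM) and the prohemocyte list in 2 of 3 (959 to 1332 CPM against 2763 to 3155 CPM, with shg listed at 0 in infested glands). In the muscle list 0 of 8 genes passed in edgeR, with 7 at an unadjusted p under 0.05, but all 8 lay below without overlap (438 to 550 CPM against 943 to 1064 CPM). What part these cells have in the members' values was not tested.

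In blood at 96 h 0 members were called in edgeR, where 4.97% of all genes tested were, with 3 at an unadjusted p under 0.05 and 0 called by DESeq2. The median of the 71 was 0.06, with 40 changes positive and 31 negative, against 0.00 for all genes, and with library totals these medians were 0.27 and 0.20. The smallest p belonged to mRpS28, with 80.2, 91.8 and 83.2 CPM in infested blood, against 52.7 and 59.3 CPM in normal blood. Its groups did not overlap, and its change was 0.60 ± 0.19 (SE, edgeR adjusted p = 0.0922). It was called without normal lymph gland replicate 3 (edgeR adjusted p = 0.038). mRpL19 (-0.47 ± 0.20 SE, edgeR adjusted p = 0.234) and mRpL44 (-0.54 ± 0.25 SE, edgeR adjusted p = 0.266) followed. The change of mRpL44 rests on the 2 normal libraries: it was -0.81 without replicate 2 and -0.09 without replicate 3. In Illumina 0 of 56 members differed by 2-fold, where 8.69% of 5203 genes did.

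In blood at 120 h, 48 h after infestation, 4 members were called, or 5.56%, where 19.4% of all genes tested were, 11.3% higher and 8.14% lower. mRpL22, which lines the nascent chain tunnel in bacteria, was higher, with 83.3, 76.4 and 89.9 CPM in infested blood, against 47.0 and 54.6 CPM in normal blood. mRpL23 was lower, with 63.2, 54.5 and 64.6 CPM in infested blood, against 99.3 and 97.0 CPM in normal blood. mRpL33 was lower, with 161, 231 and 308 CPM in infested blood, against 334 and 488 CPM in normal blood. Infested and normal libraries did not overlap in these 3, most narrowly in mRpL33, and the changes were 0.72 ± 0.19, -0.70 ± 0.21 and -0.81 ± 0.25 (SE), with edgeR adjusted p of 0.0154, 0.0286 and 0.0349.

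The fourth was mRpS6, a small subunit protein whose bacterial counterpart sits on the platform, with 25.3, 28.6 and 27.7 CPM in infested blood, against 49.6 and 40.9 CPM in normal blood (-0.75 ± 0.24 SE, edgeR adjusted p = 0.0378). Illumina gave the same direction for 2 of the 4, mRpL33 and mRpS6. For mRpL22 it gave 41.7 CPM in infested against 45.3 CPM in normal blood, and for mRpL23 17.9 against 15.7 CPM. In TPM mRpL22 had 64.6 in infested against 63.8 in normal blood. Of these 4 members, mRpL22 alone reached 20 CPM in either library. Of the 6462 genes that reached it, 61.5% were lower in infested blood. With 5 CPM added, 0 of the 48 members with at least 20 CPM differed by 2-fold, where 32.5% of 6462 genes did. With 1 CPM added, 2 of the 48 did, where 34.7% of those genes did. The median change of the 71 in the nanopore libraries was -0.15, against -0.03 for all genes. With library totals in place of TMM factors these medians were 0.05 and 0.17, so the direction of the members' median flips with the scaling, while the members stay 0.12 below all genes in either. The nanopore count of 4 called members was 2 without replicate 1 or 3 of infested blood at 120 h, and 1 without either library of normal blood at 120 h.

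Of the marker lists in blood at 120 h, the lamellocyte list was higher with infestation in 6 of 6 genes (10050 to 13440 CPM, against 232 to 238 CPM in normal blood) and the male germline list in 2 of 2 (99.1 to 179 CPM against 42.8 and 50.04 CPM, with aly listed at 0 in normal blood). The plasmatocyte list was lower in 5 of 6 (2257 to 2577 CPM against 5170 to 5187 CPM) and the crystal cell list in 3 of 4 (623 to 1444 CPM against 4644 and 4645 CPM). The midgut list was lower in 4 of 6 (19.6 to 45.3 CPM against 462 to 482 CPM, with Amy-p listed at 0 in infested blood and Jon25Bii in both) and the fat body list in 2 of 6 (521 to 3074 CPM against 2779 to 3449 CPM). Of the prohemocyte list, Tep4 was higher and Ance lower (242 to 254 CPM summed, against 323 to 334 CPM, with shg listed at 0 in both). Their part in the members' values was not tested.

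Whether the infestation effect at 96 h differed between blood and lymph gland was tested as well, and 0 members passed in edgeR, where 0.283% of all genes tested did, with 2 at an unadjusted p under 0.05 and 0 called by DESeq2. Of the 71 members, 49 had a negative change, with a median of -0.11 against 0.02 for all genes. The smallest p were those of mRpL44 (-1.05 ± 0.33 SE, edgeR adjusted p = 0.315, and -0.60 without normal blood at 96 h replicate 3) and mRpS28 (0.70 ± 0.25 SE, edgeR adjusted p = 0.427). mRpS28 had the smallest or second smallest p in 5 of the 9 comparisons. These share the same 2 libraries of normal blood at 96 h, where it had 52.7 and 59.3 CPM, so they are not 5 separate observations.

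The 1 library of normal lymph glands at 120 h, made with another kit, had a summed level of the 72 members, mRpL42 included, of 4906 CPM by library total, against 6095, 5487 and 5468 CPM in normal lymph glands at 96 h. Age and kit cannot be told apart there. The median log2 ratio of the members was -0.22, against -0.25 over 3696 genes with at least 20 CPM, and 0 members differed by 2-fold, where 10.5% of those genes did.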

How the data were processed

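Polyadenylated RNA of 22 samples was sequenced, 17 by nanopore and 5 by Illumina. The authors deposited whole-number gene counts and estimated counts per transcript for the nanopore libraries and, per the file headers, expected counts, TPM and isoform percent (an isoform's share of its gene) for the Illumina libraries. Per the submitters' processing notes, which give no roles, the tools were minimap2 2.17-r941, RSEM 1.3.1, StringTie 2.1.3, STAR 2.5.3a and FastQC 0.11.8. The authors' genome build and nanopore counting tool were not given in the sources used here. Lines for ambiguous reads (0.498 to 1.29% of gene counts) and reads outside genes (0.379 to 0.777%) were left out. Symbols were matched to 17587 FlyBase identifiers directly and 76 through transcripts, in Ensembl BDGP6.54.

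Gene counts went into edgeR 4.0.16 (R 4.3.3), with TMM factors, filterByExpr, the quasi-likelihood F test and Benjamini-Hochberg adjustment. The 16 libraries of 1 kit entered 1 fit of 6 groups with 10 residual degrees of freedom, and 9 comparisons were made. Of 13721 genes with a count 7076 were tested. The procedure was tested on simulated data. Illumina conditions have 1 library each and got no test: log2 ratios of CPM (from expected counts) with 5 added are given over genes reaching 20 CPM in either library, a limit chosen after the data were seen. The limit that a 0 sets (3 counts, counting error only) lay between 1.44 and 8.41 CPM over the tested libraries.

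Every member past the threshold was named in each comparison, the 3 with the smallest p where none passed, and the 5 with the highest and 5 with the lowest mean TPM. The members and lists were chosen with earlier results of these data known, and mRpL42, the 6 members that passed 2-fold between group means and the single genes listed at 0 were named after their values were seen. Replicate numbers in the labels were checked for pairing over 3879 genes. Same-numbered libraries deviated together in infested and normal lymph gland (correlations 0.301, 0.101 and 0.230) and in infested blood at 120 h and 96 h (0.482, 0.363 and 0.299). The numbers were taken to pair these, from the data and not the labels. Same-numbered libraries of normal blood at 120 h and 96 h did not deviate together (-0.008). The fit used had no term for pairing, and the replicate block was the alternative with one. The alternatives were other scalings, DESeq2, no filter, groups fitted alone, a replicate block, blood replicates 2 and 3 summed, and leaving out each library.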

Additional observations from a re-analysis of the deposited data

How the results depend on the processing

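Counts of called members are given for each comparison where they moved by over 1.5 times. For infestation in lymph gland (1 in the fit used) the count was 2 with library totals and without replicate 1 of both infested blood groups, 0 with DESeq2, every gene with a count, groups alone or blood replicates 2 and 3 summed, and 0 to 2 leaving out 1 library. For infestation in blood at 96 h it was 0 to 1 leaving out 1 library, and 0 in the other alternatives. For infestation in blood at 120 h (4) it was 2 with RLE scaling, every gene with a count, groups alone or without replicate 1 of both infested blood groups, 1 with library totals or DESeq2, 0 with blood replicates summed, and 1 to 5 leaving out 1 library. For 120 h against 96 h in normal blood (0) it was 1 with every gene with a count, groups alone or the replicate block. For 120 h against 96 h in infested blood (11) it was 5 with library totals, 4 with DESeq2, 4 with groups alone, 3 with blood replicates summed, 5 without replicate 1 of both groups, and 5 to 14 leaving out 1 library, all lower. For blood against lymph gland in normal larvae (1) it was 0 with library totals, every gene with a count, groups alone or blood replicates summed, and 0 to 1 leaving out 1 library. For the same in infested larvae (3) it was 1 with DESeq2, every gene with a count or groups alone, 0 with blood replicates summed, and 0 to 4 leaving out 1 library. The interaction of infestation with age (0) was 1 with every gene with a count. The causes were not tested. Shares of all genes called in the alternatives are not given, so a change among members alone cannot be told from one over all genes.

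With the replicate block, blood against lymph gland in infested larvae gave 7, where same-numbered libraries did not all deviate together (0.303, -0.158 and 0.199), 120 h against 96 h in infested blood gave 15, and the block changed no other count by over 1.5 times except the 1 in normal blood above. No named member reversed in any alternative. Keeping mRpL42 moved the members' median by at most 0.0074. Among the 11 members lower in infested blood at 120 h, mRpL9 kept its call in 23 of 24 alternatives and mRpL55 in 22, while mRpL20 kept it in 7. Library totals moved the median of all genes by 0.16, 0.20 and 0.20 in infestation of lymph gland, blood at 96 h and blood at 120 h. Depth limits mainly infested lymph gland replicate 2, and normal blood has 2 libraries per age.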

Other observations

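Nanopore and Illumina tables often named different leading transcripts for the same member. Of 20 members with more than 1 transcript in the tables, 10 had the same leading transcript on both platforms and 10 another one. mRpL28 had 71.7 to 78.5% of its nanopore counts in a transcript other than the one that took 80.2 to 92.3% in Illumina. For mRpL48, the member higher in infested lymph gland, a transcript with 55.3 to 68.8% of nanopore counts was not the one with 97.4 to 100% in Illumina. For mRpS30 the nanopore leader held 67.7 to 81.6%, while Illumina gave 75.3 to 92.3% to the other transcript. Over the nanopore groups the share of the leading transcript moved by a median of 9.44 percentage points. No test was made of these shares, and the cause was not tested.

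In the nanopore fit, the log2 change of a gene went along with the length of its longest transcript in part of the comparisons. Across 6804 genes, Spearman's rho was 0.164 for 120 h against 96 h in infested blood, -0.185 for infested and -0.188 for normal blood against lymph gland, and -0.123 for infestation in lymph gland. These are descriptions across genes that share libraries. The members are short, and their part in this relation was not tested.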
